A study of Mus musculus with 9 samples.

Results

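Msgn1, Mesp1, Mesp2 and Tbx6 are genes of the presomitic mesoderm, and the binding of T (Brachyury), TCF1 and SMAD1 around these 4 genes was examined by chromatin immunoprecipitation followed by sequencing (ChIP-seq). The members are all the deposited 2 kb windows, stepping by 1 kb, inside 3 stretches of build mm9. Mesp1 and Mesp2 share chr7:86890000-87000000 (109 windows), Msgn1 has chr12:11150000-11260000 (109 windows) and Tbx6 has chr7:133890000-133960000 (69 windows). This makes 287 of 2654924 windows in all. The genes were chosen by their T enrichment in these same libraries, so the T values below are a description and carry no test.

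There were 6 immunoprecipitated libraries and 3 inputs from mouse cells labelled EpiLC (epiblast-like cells), strain C57BL/6, each the only library of its group. T and SMAD1 at 36 h were profiled in PV, a Prdm14-mVenus reporter line. TCF1 and SMAD1 at 12, 24 and 36 h were profiled in BV, a Blimp1-mVenus reporter line. The inputs, chromatin taken without an antibody, are titled PV, BV and BVSC, the last also labelled as the BV line. The labels' protocols describe EpiLCs made from embryonic stem cells with Activin A and bFGF, then plated in suspension in medium with LIF (leukaemia inhibitory factor), where the cytokines BMP4 and WNT3A were present or absent. The labels leave unsaid which library had which cytokine and at what time the T and TCF1 cells were taken. ChIP-seq measures no expression, so the EpiLC label was not checked against marker genes. T comes from another line than TCF1 and the BV libraries of SMAD1. Between T and any of these, a difference between factors and a difference between lines cannot be told apart.

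Depth ranged from 14925074 reads (SMAD1 at 36 h in BV) to 134657262 reads (input BV). The T library held 20736671 reads and TCF1 27360924. A mean autosomal window held 16.4 counts for T, 33.5 for input PV, 21.6 for TCF1, 106 for input BV and between 11.8 and 34.2 for the SMAD1 libraries. With no replicate there is no spread between libraries. The 95% intervals below are exact, by the Clopper-Pearson method, for how 2 counts divide their sum. They cover counting error only. Any PCR copies of a fragment left in the deposited counts are counted like separate molecules.

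The presomitic mesoderm is the tissue of the tail end of the embryo from which somites are cut off in sequence. T belongs to the T-box family of transcription factors and acts in the primitive streak and early mesoderm, TCF1 carries the WNT signal to DNA together with beta-catenin, and SMAD1 carries the BMP signal. Msgn1 (mesogenin 1) is a basic helix-loop-helix factor that drives cells into the presomitic fate. Mesp1 and Mesp2 are neighbouring genes for related helix-loop-helix factors, Mesp1 known for early mesoderm and heart precursors and Mesp2 for setting segment borders. Tbx6 is itself a T-box factor and turns precursors toward paraxial mesoderm and away from neural fate.

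In the RefSeq gene order, Mesp1 and Mesp2 lie next to each other between Wdr93 and Anpep among protein-coding genes, Msgn1 lies between Kcns3 and Gen1, and Tbx6 between Ypel3 and Ppp4c. That table is of GRCm38.p6, another build than the counts, so gene starts were not placed on the T sites. Distances are therefore given between sites, and no site is assigned to Mesp1 or to Mesp2 alone.

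The start regions of the 4 genes, 250 bases before to 50 bases after the start of the gene on its own strand, are shown so that letters T-box and TCF/LEF factors are known to read can be seen in them or found missing. They come from RefSeq, build GRCm38.p6, and all 4 genes were matched. Capitals mark TCACACCT (a T-box site of one arm) and its core CACACC, which overlaps it, and CTTTGA and CTTTGT (TCF/LEF), on either strand.
Msgn1 (chromosome 12, minus strand): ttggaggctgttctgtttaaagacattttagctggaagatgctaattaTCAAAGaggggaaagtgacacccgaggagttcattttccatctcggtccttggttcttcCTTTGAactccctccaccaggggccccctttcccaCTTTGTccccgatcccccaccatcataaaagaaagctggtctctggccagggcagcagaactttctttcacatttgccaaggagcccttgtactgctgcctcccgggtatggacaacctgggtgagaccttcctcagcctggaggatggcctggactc
Mesp1 (chromosome 7, minus strand): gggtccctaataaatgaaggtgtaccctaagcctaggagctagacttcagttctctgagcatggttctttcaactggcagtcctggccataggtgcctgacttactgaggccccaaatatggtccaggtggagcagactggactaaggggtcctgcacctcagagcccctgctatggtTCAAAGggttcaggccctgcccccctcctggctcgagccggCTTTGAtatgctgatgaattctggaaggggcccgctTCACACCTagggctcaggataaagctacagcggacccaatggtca
Mesp2 (chromosome 7, plus strand): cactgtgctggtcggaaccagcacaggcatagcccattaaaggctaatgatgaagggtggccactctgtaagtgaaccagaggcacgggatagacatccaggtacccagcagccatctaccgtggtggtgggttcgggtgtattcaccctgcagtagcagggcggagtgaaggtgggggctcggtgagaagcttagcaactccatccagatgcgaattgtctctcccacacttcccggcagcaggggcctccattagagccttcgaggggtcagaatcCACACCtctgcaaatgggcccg
Tbx6 (chromosome 7, plus strand): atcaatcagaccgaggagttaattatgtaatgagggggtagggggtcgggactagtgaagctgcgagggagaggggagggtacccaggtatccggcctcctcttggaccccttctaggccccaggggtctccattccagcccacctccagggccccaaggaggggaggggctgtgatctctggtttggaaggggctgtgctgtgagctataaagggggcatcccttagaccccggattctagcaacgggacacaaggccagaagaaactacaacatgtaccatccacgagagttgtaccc

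The Mesp1 region held the whole TCACACCT at bases 6 to 13, counted from 1 at the first base of the gene, and 1.28% of 32851 promoter regions of this length in the table held it. Mesp2 held the core CACACC alone, at bases 29 to 34, and 19.0% of all regions held that core. CTTTGA occurred at 2 places in Msgn1 and 2 in Mesp1 (16% of all regions hold at least 1), and CTTTGT at 1 place in Msgn1 (18.7%). The Tbx6 region had none of these letters, and none of the 4 held GTCTAGAC (0.213% of all regions) or GGCGCC (11.9%), short sequences linked to SMAD binding. These matches describe the letters in these stretches, and whether the T sites below fall on them was not tested.

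T was strongly enriched at 1 place in the Mesp1 and Mesp2 window and at 2 places in the Msgn1 window, and only weakly in the Tbx6 window. The counts of a library were divided by its autosomal mean, so that 1 is the level of a mean window. Enrichment is this scaled level in the immunoprecipitated library over that in the input of the same line, after adding a pseudocount of 0.5 to each. A T region was called where both the enrichment and the scaled T value reached 4, which at a scaled input of 1 needs a plain ratio of 5.5. The windows of Mesp1 and Mesp2 held 1 called region, those of Msgn1 held 2 and those of Tbx6 held 0. Over the genome 678 regions were called, made of 0.0482% of the 2367750 windows kept. Of 18493 genome tiles of 110 kb that were counted, 3.1% held at least 1 called region and 0.0865% at least 2. Of 28654 counted tiles of 70 kb, 2% held at least 1 and 0.0489% at least 2. The counted tiles do not cover the whole genome. Since the genes were chosen for T binding, nothing is read from their counts against these shares. All windows of the Mesp1 and Mesp2 and of the Tbx6 stretch passed the filter on input, and 103 of the 109 windows of Msgn1 did. The other 6, from 11194001 to 11201001, had few or no reads in any library.

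**Figure D1:**
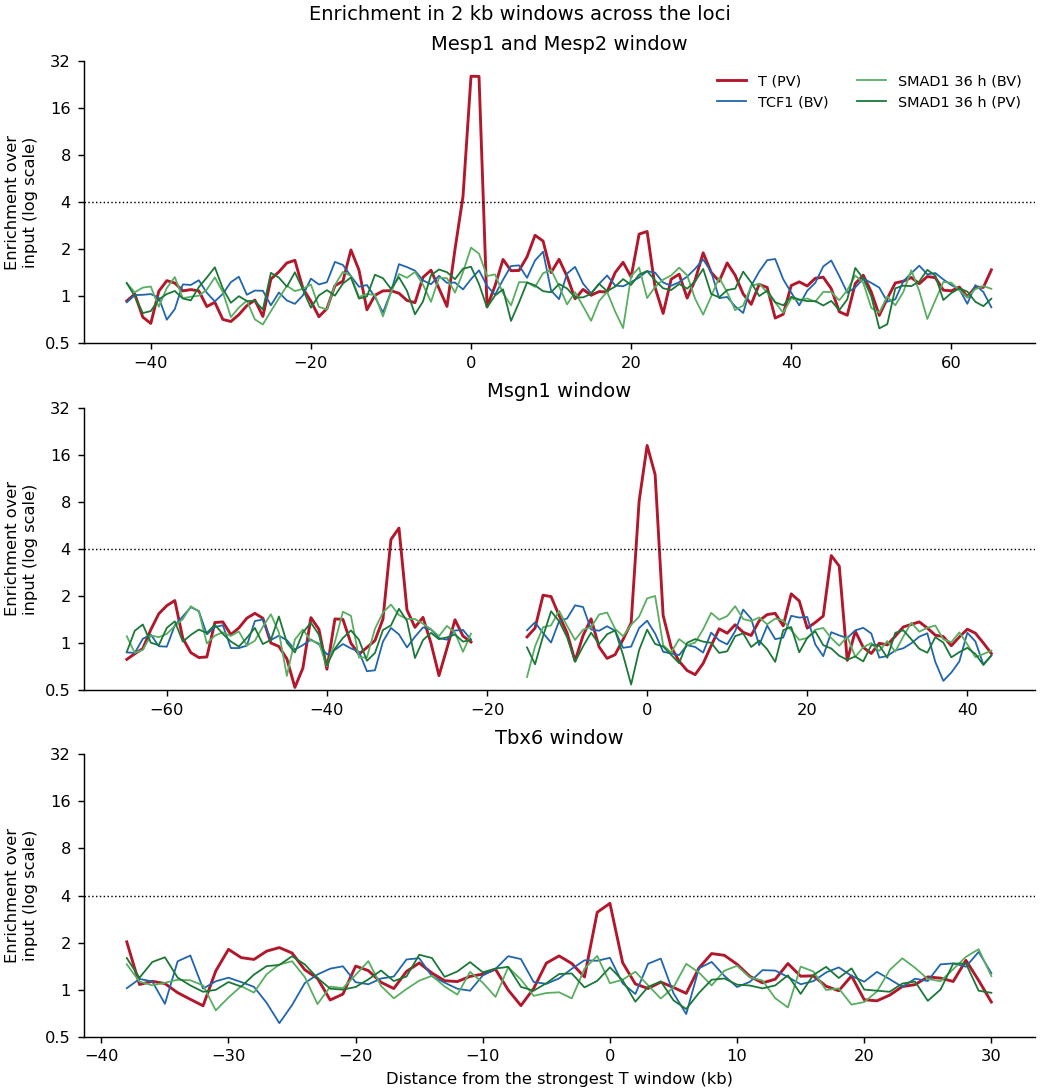
Enrichment over the input of the same line (log scale) in 2 kb windows across the 3 stretches, against the distance in kb from the strongest T window, for T, TCF1 and SMAD1 at 36 h in BV and PV. The dotted line is the level of 4 needed for a call, and the gap in the Msgn1 panel marks windows with too little input. T rises to 25.6 and 18.4 at its strongest windows near Mesp1 and Mesp2 and near Msgn1 and to 3.57 near Tbx6, while the other factors stay at or below 2.05.

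The region near Mesp1 and Mesp2 was among the strongest T regions of the genome. At chr7:86933001-86935001 the T library had 689 counts, against 39 in input PV, 144 in the deeper input BV and 38 in input BVSC. On the scaled level T stood at 42.1 and input PV at 1.16. The enrichment was 25.6 (plain ratio 36.2, 95% interval 26.2 to 51.3), rank 4 among the 678 called regions. The next window, starting 1 kb higher, gave nearly the same enrichment of 25.5 with 625 counts.

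Because windows overlap by 1 kb, the counts could be solved into 1 kb bins, which gave no value below 0 in 8 of the libraries. Of the T reads near Mesp1 and Mesp2, 621 fell into the bin chr7:86934001-86935000, against 22 in input PV. This single bin held 29.5% of the 2106 T reads of the 110 kb stretch, against 0.967% of the input PV reads. The edges of the site were unequal. The 2 bins before it held 49 and 68 T reads, and the bin after it held 4, with 25, 17 and 12 in input PV. In the top bin the enrichment was 42.1 (plain ratio 57.8, 37.8 to 92.8).

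A weaker rule, with 2 in place of 4 for both values, was used to describe lesser T sites, and it took in 0.412% of all kept windows. The same rule on input BVSC against input PV took in 0.0294%. By it, with T over input PV, the Mesp1 and Mesp2 window had 3 sites, the Msgn1 window 5 and the Tbx6 window 2. Of the counted 110 kb tiles, 1.03% held at least 3 such sites and 0.0216% at least 5, and of the counted 70 kb tiles 2.60% held at least 2. The lesser sites near Mesp1 and Mesp2 lay 8 and 22 kb above the strong one. At chr7:86941001-86943001 there were 66 T counts against 45 in input PV (enrichment 2.46, plain ratio 3.0, 2.02 to 4.49). At chr7:86955001-86957001 there were 69 T counts against 44 (enrichment 2.60, plain ratio 3.21, 2.17 to 4.80). Both lay far below the strong site, and their intervals overlap each other.

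Msgn1 had the most T sites of the 3 stretches, spread over 54 kb. The strongest, chr12:11215001-11217001, had 483 T counts, against 38 in input PV, 105 in input BV and 40 in input BVSC. Its enrichment was 18.4 (plain ratio 26.0, 18.7 to 37.2), rank 6 of 678, level with 1 other region. The interval overlaps that of the Mesp1 and Mesp2 site, so the order of these 2 lies within counting error. The reads lay across 2 neighbouring bins, with 207 in the bin starting at 11215001 and 276 in the one starting at 11216001, against 18 and 20 in input PV. The bins on either side held 17 and 18 T reads. Their enrichments were 1.33 and 1.93, so the site was bounded on both sides. Near Mesp1 and Mesp2 the 2 bins before the top bin had 3.26 and 5.81, and the bin after it had 0.81.

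A second called region of Msgn1 lay 31 kb below the strongest. At chr12:11184001-11186001 there were 124 T counts against 33 in input PV (enrichment 5.44, plain ratio 7.69, 5.20 to 11.7), rank 309 of 678. It was not called at a threshold of 6. In bins, 107 T reads fell into chr12:11184001-11185000, against 25 in input PV, with 19 and 17 T reads in the bins beside it. A further site 23 kb above the strongest stayed below the call, but with a threshold of 3, a pseudocount of 0.1 or 1 kb bins the Msgn1 stretch had 3 called regions. At chr12:11238001-11240001 there were 103 T counts against 46 (enrichment 3.63, plain ratio 4.58, 3.21 to 6.64), and 81 of the reads, against 26 in input PV, fell into 1 bin with an enrichment of 5.07. The last 2 sites, 13 kb below and 18 kb above the strongest, had enrichments of 2.02 (41 counts against 33) and 2.06 (45 against 36).

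**Figure D2:**
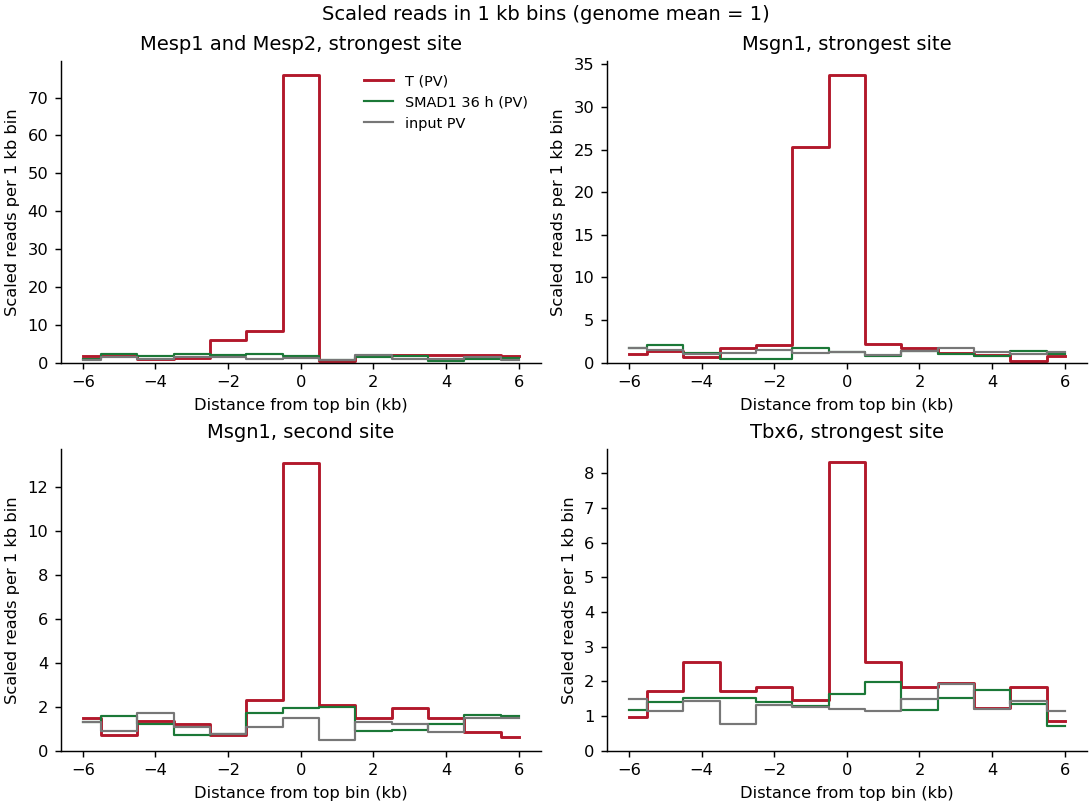
Scaled reads per 1 kb bin (genome mean 1, linear axes that differ between panels) within 6 kb of the top T bin at 4 sites, for T, SMAD1 at 36 h in PV and input PV. T peaks within 1 or 2 bins at each site, with 621 T reads in the top bin near Mesp1 and Mesp2, 276 and 107 at the 2 Msgn1 sites and 68 near Tbx6. At the second Msgn1 site the bin after the top one has 34 reads for SMAD1 at 36 h in PV, against 8 in input PV. The enrichments there, 2.54 for SMAD1 and 2.64 for T, share this low input PV, scaled 0.478, where input BV has 1.62. In the top bin beside it SMAD1 has 33 reads and an enrichment of 1.22.

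Near Tbx6 the strongest T window just missed the call. At chr7:133928001-133930001 there were 89 T counts, against 39 in input PV, 118 in input BV and 43 in input BVSC. The enrichment was 3.57 (plain ratio 4.67, 3.17 to 6.99), rank 921 among 6281 sites by the weaker rule. The plain ratio lies below that of the strong Mesp1 and Mesp2 and Msgn1 sites with intervals that do not overlap. In bins the site was narrow, with 68 T reads in chr7:133928001-133929000, against 20 in input PV, and 12 and 21 T reads in the bins beside it. With a threshold of 3, or a pseudocount of 0.1, the site was called. The bin reached an enrichment of 5.20 (plain ratio 6.96, 4.17 to 12.1), past the level of a call, and 0.068% of all bins kept pass that level. The other Tbx6 site by the weaker rule lay at the edge of the stretch, 38 kb below, with 38 T counts against 30 (enrichment 2.02).

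**Figure D3:**
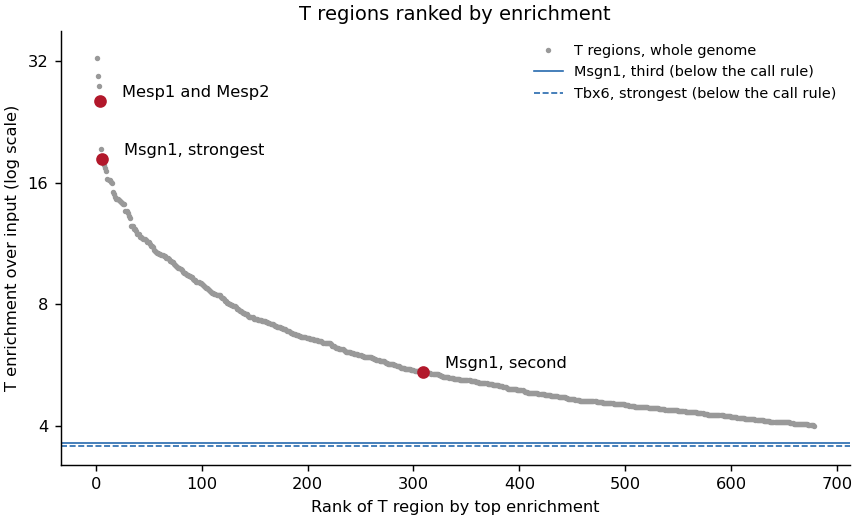
T enrichment (log scale) of the 678 called T regions of the genome, ordered by rank, with the 3 called sites near Mesp1 and Mesp2 and near Msgn1 in red. Horizontal lines give the Msgn1 site at 3.63 and the strongest Tbx6 site at 3.57, both below the level of 4.

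TCF1 had no called region in any of the 3 stretches, and no window reached 2 over input BV. Over input BVSC, also labelled as the BV line, the highest TCF1 windows had 2.01 near Mesp1 and Mesp2, 2.27 near Msgn1 and 2.22 near Tbx6, and with a pseudocount of 0.1 the highest over input BV was 2.24, near Mesp1 and Mesp2. The rule of 4 took in 0.00283% of all kept windows for TCF1 and the rule of 2 took in 0.0919%. At the strongest T window near Mesp1 and Mesp2, TCF1 had 41 counts against 144 in input BV (enrichment 1.29, plain ratio 1.39, 0.961 to 1.98). At the strongest T window of Msgn1 it had 34 against 105 (1.39, plain ratio 1.59, 1.04 to 2.35). At that of Tbx6 it had 45 against 118 (1.6, plain ratio 1.87, 1.29 to 2.65). For the level around them, TCF1 had a median enrichment of 1.2 over the Mesp1 and Mesp2 windows, 1.06 over those of Msgn1 and 1.19 over those of Tbx6. All 10 T sites had a TCF1 enrichment above 1, and at 5 of them the interval lay above 1, with a highest value of 1.70. Being above 1 was common in these stretches, as 81.7% of the kept windows near Mesp1 and Mesp2, 60.2% near Msgn1 and 88.4% near Tbx6 had such a TCF1 value. The interval lay above 1 in 9.67% of all kept windows and in 22.7% of the 678 T regions.

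The highest TCF1 window near Mesp1 and Mesp2 fell on a lesser T site, not on the strong one. It was chr7:86942001-86944001, 9 kb above the strongest T window, with 57 TCF1 counts against 119 in input BV (enrichment 1.93, plain ratio 2.35, 1.68 to 3.24). Of all kept windows, 0.163% had as high a TCF1 value. In the bin chr7:86942001-86943000 TCF1 had 40 reads against 61 in input BV (enrichment 2.54, plain ratio 3.21, 2.10 to 4.86), a level reached by 0.0513% of all bins. In that same bin T had 42 reads against 21 in input PV (enrichment 3.21, plain ratio 4.09, 2.37 to 7.27). The 2 factors were set against different inputs here. This bin was singled out after its values were seen. The highest TCF1 windows of Msgn1 (1.74, 9 kb below the strongest T window) and Tbx6 (1.74, 29 kb above it) fell on no T site, with T enrichments of 0.77 and 1.15 there.

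SMAD1 had no called region in these stretches either, in any of its 4 libraries. In BV the rule of 4 took in 0.00946% of all kept windows at 12 h, 0.00405% at 24 h and 0.000887% at 36 h, and in PV at 36 h 0.00557%. The rule of 2 took in 0.123%, 0.0276% and 0.0429% in BV and 0.0374% in PV. In the 3 stretches, over input BV and input PV, it was met at 1 site, by SMAD1 at 36 h in BV near Mesp1 and Mesp2. Over input BVSC more of the highest windows passed an enrichment of 2. At 12 h they had 2.12 near Msgn1 and 2.15 near Tbx6, and at 24 h 2.46 near Msgn1. At 36 h they had 2.49 near Mesp1 and Mesp2 and 2.30 near Msgn1 in BV, and 2.18 and 2.25 there in PV. The other highest windows lay between 1.54 and 1.92. In the PV line, which allows a comparison with T over the same input, SMAD1 at 36 h had 71 counts at the strongest T window near Mesp1 and Mesp2 (enrichment 1.55, plain ratio 1.78, 1.19 to 2.71). It had 51 counts at that of Msgn1 (1.22, plain ratio 1.31, 0.851 to 2.06) and 62 at that of Tbx6 (1.39, plain ratio 1.56, 1.03 to 2.39). The medians of this library over the kept windows were 1.10 near Mesp1 and Mesp2, 1.02 near Msgn1 and 1.15 near Tbx6. Of these windows 67.0%, 56.3% and 81.2% lay above 1. Its interval lay above 1 at 5 of the 10 T sites, in 4.48% of all kept windows and in 18.9% of the 678 T regions. In BV the interval lay above 1 at 0, 1 and 4 of the 10 sites at 12, 24 and 36 h. The shares there were 5.23%, 4.66% and 3.56% of all kept windows and 12.8%, 18.4% and 26.3% of the T regions. Set directly against SMAD1 of the PV line, the scaled T level was 20.3 times as high near Mesp1 and Mesp2 (15.9 to 26.3), 19.8 times at Msgn1 (14.8 to 27.0) and 3.0 times at Tbx6 (2.14 to 4.22). These windows were picked as the highest for T, and the libraries are of different factors. The ratios thus compare scaled read levels, not the amounts of factor bound.

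**Figure D4:**
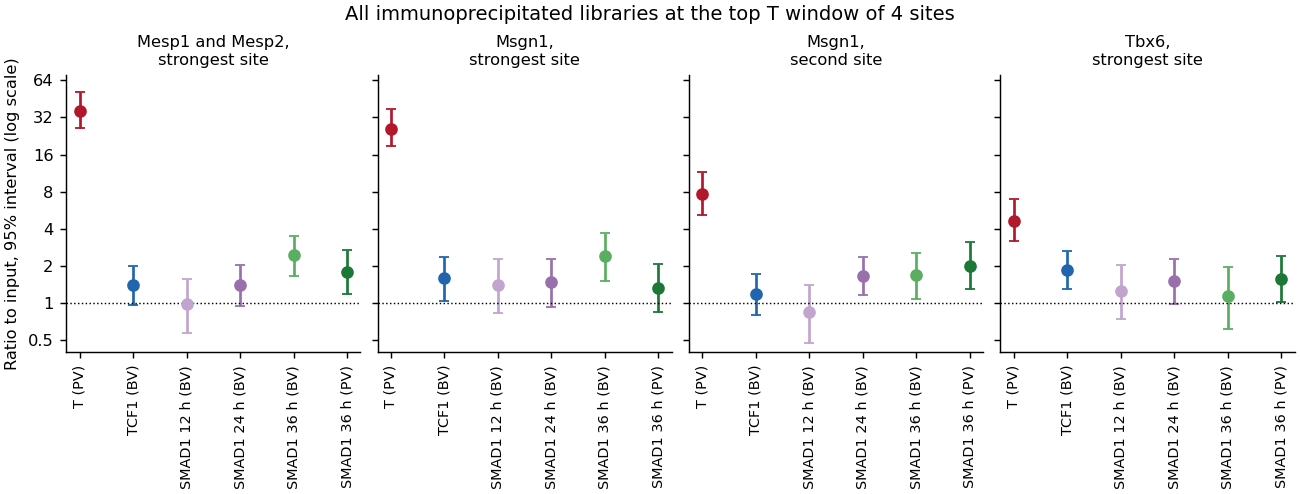
Plain ratio to the input of the same line (log scale) with exact 95% intervals for counting error, for the 6 immunoprecipitated libraries at the top T window of 4 sites. T lies between 4.67 and 36.2, and among the others SMAD1 at 36 h in BV is the highest at the strongest sites near Mesp1 and Mesp2 (2.44) and near Msgn1 (2.40).

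In the BV line SMAD1 at the strongest T site near Mesp1 and Mesp2 was higher at 36 h than at 12 h beyond counting error, and at that of Msgn1 the interval included 1. Near Mesp1 and Mesp2, SMAD1 had 19 counts at 12 h, 35 at 24 h and 39 at 36 h, with enrichments of 0.98, 1.29 and 2.05 over the 144 counts of input BV. At 36 h the plain ratio was 2.44 (1.66 to 3.49), and this was the highest SMAD1 window of the 110 kb at that time, a level reached by 0.0381% of all kept windows. In the top T bin SMAD1 at 36 h had 21 reads against 66 in input BV (enrichment 2.33, plain ratio 2.86, 1.66 to 4.74), a level reached by 0.104% of all bins kept. Without the input, the scaled SMAD1 level at 36 h was 2.50 times that at 12 h (1.41 to 4.58) and 1.74 times that at 24 h (1.07 to 2.83). At 24 h against 12 h the ratio was 1.44 (0.801 to 2.66), an interval that includes 1.

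At the strongest Msgn1 site SMAD1 had 20 counts at 12 h, 27 at 24 h and 28 at 36 h, with enrichments of 1.27, 1.32 and 1.93. The level at 36 h was 1.71 times that at 12 h (0.927 to 3.19), an interval that includes 1. In the top T bin SMAD1 at 36 h had 19 reads against 55 in input BV (enrichment 2.42, plain ratio 3.11, 1.74 to 5.32), a level reached by 0.0648% of all bins kept. Of the 10 T sites, 2 reached an enrichment of 2 in their top T bin in this library. The window 1 kb above the strongest T window was the highest of the Msgn1 stretch at 36 h in BV, with 29 counts against 104 in input BV. Its enrichment of 1.999 lay just under the rule of 2. In that library the median of the kept Msgn1 windows was 1.17, and 75.7% of them lay above 1. At the second Msgn1 site the counts were 17, 43 and 28, in libraries of unlike depth, with scaled levels of 1.19, 2.34 and 2.38. The level at 36 h was 2.01 times that at 12 h (1.06 to 3.91) and 1.02 times that at 24 h (0.608 to 1.67). Near Tbx6 there was no such order, with 20, 31 and 15 counts and enrichments of 1.17, 1.36 and 1.10.

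Over all 10 T sites, SMAD1 at 36 h was above 12 h in BV at 7, with an interval above 1 at 2 and below 1 at 0. Of the 678 T regions 70.8% were higher at 36 h, with an interval above 1 in 10.8% and below 1 in 0.59%, and of all kept windows 50.0% were higher, with 2.55% and 2.36%. The count of 7 is thus near the share of T regions in general. These intervals, over 4 pairs of SMAD1 libraries at 10 sites, are not adjusted for their number, and with 1 library per time there is no replicate check. Between the lines at 36 h, the SMAD1 level in PV was 0.627 times that in BV near Mesp1 and Mesp2 (0.418 to 0.951), and 0.627 times at the strongest Msgn1 site (0.388 to 1.03). It went the other way at the site 22 kb above the strongest one near Mesp1 and Mesp2, with 73 counts in PV, 12 in BV and a ratio of 2.09 (1.13 to 4.24). PV was higher at 3 of the 10 sites, with an interval above 1 at 1 and below 1 at 1. Of the 678 T regions 32.2% were higher in PV, with an interval above 1 in 1.03% and below 1 in 12.2%, and of all kept windows 51.3% were higher, with 2.6% and 3.05%. The median ratio of PV to BV, with the pseudocount, was 0.873 at T regions and 1.01 over all kept windows.

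Over all 678 called T regions the BV libraries of SMAD1 had median enrichments of 1.08 (12 h), 1.14 (24 h) and 1.26 (36 h), and the PV library had 1.15, whereas the median over all kept windows lay between 0.98 and 0.99 in these libraries. The median ratio of 36 to 12 h in BV, with the pseudocount, was 1.16 at T regions and 1.00 over all kept windows. SMAD1 at 36 h in BV reached 2 or more at 24 of the 678 T regions (3.54%). Among all 678, the Mesp1 and Mesp2 site stood at rank 18 for this library and the strongest Msgn1 site at rank 32. TCF1 had a median of 1.10 at the T regions, and the strong Mesp1 and Mesp2 and Msgn1 sites stood at ranks 196 and 132 for it. Across the 678 T regions, which share libraries and depth, the log2 enrichment of T had a Pearson correlation of 0.12 with SMAD1 at 36 h in BV and 0.13 with TCF1, too weak to be a finding.

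The highest SMAD1 windows at 12 and 24 h were not the strongest T windows. At 12 h they lay 37 kb above the strongest T window near Mesp1 and Mesp2 (1.67), 14 kb above that of Msgn1 (1.57) and 20 kb below that of Tbx6 (1.91). At 24 h they lay 60 kb above (1.76), 60 kb below (1.86) and 2 kb below (1.79), the last at the edge of the Tbx6 T site. The least common of these 6 levels, 1.86 near Msgn1, was reached by 0.075% of all kept windows. Over input PV, which T shares, SMAD1 in PV was highest on the strongest T window near Mesp1 and Mesp2 and on the second T site of Msgn1. The values were 1.55 and 1.66, levels reached by 1.28% and 0.55% of all kept windows. In the top T bins there SMAD1 had 1.31 and 1.22, levels reached by 15.4% and 21.6% of all bins kept. Over input BVSC these windows had 1.68 and 1.66 and were not the highest. The highest were then 2.18, at the T site 22 kb above the strongest near Mesp1 and Mesp2, and 2.25 in the Msgn1 stretch. Near Tbx6 the highest window of SMAD1 in PV, over input PV, lay 15 kb below the strongest T window, with 1.67. At 36 h in BV the highest Tbx6 window lay 29 kb above, with 28 counts against 115 in input BV (1.81), and it was also the highest TCF1 window there, over the same input.

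The inputs had similar levels in the 3 stretches. The median scaled input lay at 1.22 in input PV, 1.21 in input BV and 1.14 in input BVSC near Mesp1 and Mesp2, at 1.13, 1.11 and 0.978 near Msgn1 and at 1.22, 1.25 and 1.17 near Tbx6. Input BVSC could not be solved into bins. It gave the strongest and the called T sites enrichments close to those above, 27.8 near Mesp1 and Mesp2, 18.9 and 5.46 at the 2 called Msgn1 sites and 3.56 near Tbx6. Some lesser sites fell under the level of 2 of the weaker rule. The Msgn1 sites 13 kb below and 18 kb above the strongest had 1.80 and 1.86, and the Tbx6 site 38 kb below had 1.78. The lesser Mesp1 and Mesp2 sites had 2.81 and 3.91, and the Msgn1 site 23 kb above the strongest had 3.76.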

How the data were processed

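The authors deposited unnormalized counts of reads, whole numbers in 2 kb windows stepping by 1 kb. The submitters' processing notes name Bowtie 0.12.8 and mm9, and the labels' protocols give a read length of 50 bp, single-end. How duplicate reads were handled is not stated there. Autosomal and X windows were used if the 3 scaled inputs averaged 0.25 or more and none was above 3. Depth is the sum over every other window. Called windows that overlap or adjoin were merged. The 1 kb bins were solved from the start of each chromosome, and 47.4% came out below 0 in input BVSC, so its bins were not used. The steps were tested on simulated data and run with Python 3.11.15, NumPy 2.4.6, pandas 2.3.3 and SciPy 1.17.1. Named genes were the 4 members and their nearest neighbours. The members and lists were chosen with earlier results of these data known. A list of other presomitic genes was not used here, since it needed gene positions in mm9. Alternatives were other scalings, pseudocounts, inputs, thresholds, no filter and lower depth. With 1 library per group no test between groups was made.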

Additional observations from a re-analysis of the deposited data

How the results depend on the processing

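Other inputs and scaling over windows of typical input level (642 T regions) moved none of the T, TCF1 and SMAD1 enrichments at the strongest T sites beyond the counting interval. These settings, no filter on input and T thinned to the lowest depth moved no count of T regions by over 1.5 times. The pseudocount moved both. With 0.1 the T summit enrichments were 34.3 near Mesp1 and Mesp2 and 24.0 near Msgn1, with 1045 T regions in the genome and 1 near Tbx6. With 1 they were 19.9 and 14.3, with 377 T regions. A threshold of 3 gave 1373 T regions in the genome and 1 near Tbx6, and a threshold of 6 gave 236 in the genome and 1 near Msgn1. In 1 kb bins, an alternative chosen after seeing the data, the summits were 42.1 near Mesp1 and Mesp2 and 5.20 near Tbx6, with 1476 T regions in the genome and 1 near Tbx6. A threshold of 3, a pseudocount of 0.1 and 1 kb bins each gave 3 T regions near Msgn1. The Tbx6 site thus lies on either side of the call by the setting, and the strongest sites near Mesp1 and Mesp2 and near Msgn1 were called under each of these settings. With input BVSC, the highest SMAD1 enrichment moved to 2.18 near Mesp1 and Mesp2 and to 2.25 near Msgn1 (36 h, PV) and to 2.46 near Msgn1 (24 h). No paired analysis was possible because each group held 1 library. The BV library of SMAD1 at 36 h had the lowest depth, 11.8 counts per mean window, and its plain ratio of 2.44 near Mesp1 and Mesp2 had an interval of 1.66 to 3.49.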
